A study of Mus musculus with 2 samples.

Results

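The lysosomal cathepsins examined here are 10 protease genes of the mouse, Ctsa, Ctsb, Ctsc, Ctsd, Ctsf, Ctsh, Ctsk, Ctsl, Ctss and Ctsz, taken by symbol from a table of 16040 genes. Each of the 10 symbols had 1 entry. The table counts short tags from the 3′ end of transcripts (serial analysis of gene expression, SAGE) in lung fibroblasts after bleomycin, a DNA-damaging drug used to produce lung fibrosis in rodents. There were 2 libraries, both from Col1a2-EGFP mice, which carry a green fluorescent reporter named for the type I collagen gene Col1a2. The saline library came from fibroblasts of 3 mice at 14 days after saline, and the bleomycin library from fibroblasts of 3 mice at 14 days after bleomycin, each agent given into the trachea. Dissociated lung cells that were lineage-negative and reporter-positive were sorted, so both libraries describe cells selected for the reporter. The labels give no age or sex, and no library for mice taken singly. Total counts were 1080798 (saline) and 1099840 (bleomycin).

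Cathepsins are made as inactive precursors, tagged with mannose phosphate in the Golgi, carried to the lysosome and activated there at low pH. Most are cysteine proteases, Ctsd encodes an aspartic protease and Ctsa a serine carboxypeptidase. Fibroblasts take up collagen fragments and break them down in lysosomes, and cathepsin K can cut triple-helical collagen. Cystatins are tight-binding inhibitors of the cysteine cathepsins, and cystatin C, the product of Cst3, is the main secreted one.

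In the bleomycin library Ctsc and Ctsk stood well above the saline library, at 4.50-fold and 2.65-fold. The other 7 members with enough counts to test, including the abundant Ctsd, Ctsb and Ctsz, had ratios whose 95% intervals included 1. Ctss was at or near 0 in both libraries. A member was tested when it had at least 10 counts over both libraries, which 9 of the 10 did. It was called when an exact binomial test across the whole table gave a Benjamini-Hochberg adjusted p under 0.05 and the ratio, with 0.5 added to each count, was at least 2. Of the 9 tested members, 2 were called higher, against 8.08% of the 9369 genes tested, and 0 were called lower, against 8.52%. The share of all tested genes called in either direction was 16.6%, and 2 of 9 members is 22.2%. Each group is 1 library, so no difference here has a replicate check, and the test compares the libraries and not the conditions.

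SAGE reads a tag next to a restriction site near the end of the transcript, and kits of this type cut at CATG. To see whether the members could be told apart by such tags, the CATG nearest the 3′ end was located in the transcript matched to each member's RefSeq record (GENCODE M21, GRCm38). The resulting 25-base tag lay in the 3′ untranslated part of the last exon for 10 of 10 members, and 10 of 10 were found in transcripts of no other gene. The deposited table holds no tags, so these are predictions. The tags of the 2 called genes are shown, with that of Ctss, the neighbour of Ctsk. Capitals mark the CATG site.
Ctsc, chr7:88310750-88310774, plus strand, exon 7 of 7: CATGagcgcacacctaaataactaa
Ctsk, chr3:95509299-95509323, plus strand, exon 8 of 8: CATGatattaaaaaaagtgtttttc
Ctss, chr3:95556358-95556382, plus strand, exon 8 of 8: CATGatagccccaaagtgcttaata

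Tags could still be shared between strands where genes overlap. The predicted tag of Ctsa lies within Pltp on the opposite strand, a gene with 504 saline and 65 bleomycin counts, and that of Ctsb lies within Fdft1 on the opposite strand, with 0 and 6 counts. The predicted Ctsd tag lies within a same-strand gene model, Gm49369, although no transcript of that model holds it. No source used here says whether counting used strand, so the Ctsa value is uncertain.

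Ctsc encodes dipeptidyl peptidase I, which removes pairs of residues from the amino end of proteins and is known for activating granule serine proteases of leukocytes. The saline library held 38 Ctsc counts and the bleomycin library 169, or 34.7 and 156 CPM (counts scaled to library size). The ratio was 4.50 (exact 95% interval 3.15 to 6.58, adjusted p = 1.05e-19 by the exact binomial test). The intervals of the 2 levels, 24.5 to 47.6 CPM and 133 to 181 CPM, did not overlap. Intervals here cover counting error alone.

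Ctsk encodes cathepsin K, the collagen-cutting protease of osteoclasts, which is also made by fibroblasts. Its counts were 58 in saline and 152 in bleomycin, or 52.9 CPM (40.2 to 68.4) and 140 CPM (119 to 164). The bleomycin level was 2.65-fold the saline level (1.95 to 3.65, adjusted p = 5.32e-10 by the exact binomial test). When preparations were instead assumed to vary with a coefficient of 0.4 and not by counting error alone, neither Ctsc (adjusted p = 0.517, edgeR) nor Ctsk (adjusted p = 1, edgeR) was called.

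The ratios of the 2 called genes can be compared without any library scaling. Per 100 Ctsk counts there were 65.5 Ctsc counts in saline and 111 in bleomycin, a change of 1.70-fold with an exact 95% interval of 1.04 to 2.78. Ctsc thus had the larger ratio of the pair, by an interval that comes close to 1. Set against Ctsd, the most abundant member, Ctsc went from 2.59 to 11.3 counts per 100 and Ctsk from 3.95 to 10.2.

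**Figure D1:**
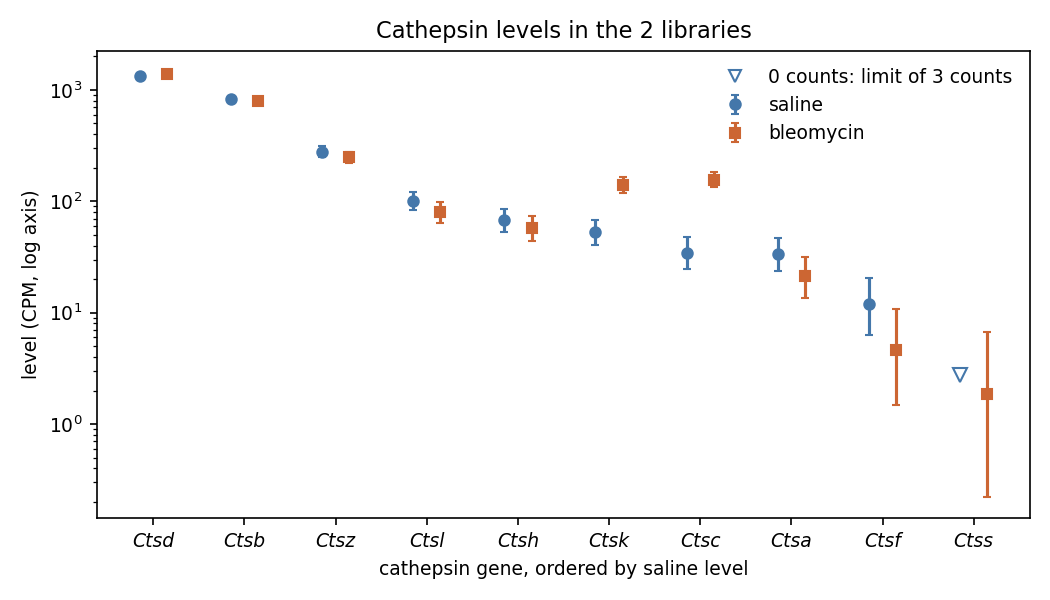
Level of each cathepsin gene in CPM (log axis) in the saline (circles) and bleomycin (squares) library, 1 library each, with exact Poisson 95% intervals. The open triangle marks the level of 3 counts for Ctss, which had 0 saline counts. Ctsc and Ctsk are the 2 genes whose intervals are separate.

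Among the other endopeptidases, which cut within protein chains, Ctsb encodes cathepsin B and was the second most abundant member, with 902 and 857 counts. Its ratio was 0.961 (0.874 to 1.06). Ctsl, for cathepsin L, had 111 and 86 counts, a ratio of 0.784 (0.584 to 1.05). Ctsl and Ctsk, close relatives by sequence family, therefore gave different ratios: per 100 Ctsl counts there were 52.3 Ctsk counts in saline and 177 in bleomycin, a change of 3.37-fold (2.19 to 5.23). Ctsf, for cathepsin F, had 13 and 5 counts, and its interval, 0.109 to 1.16, is too wide to tell a fall from no difference at this depth.

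Ctss encodes cathepsin S, which is abundant in macrophages and other antigen-presenting cells and trims the invariant chain of class II histocompatibility molecules. It had 0 saline and 2 bleomycin counts and was not tested. The exact Poisson interval of the 0 saline counts reaches 3.36 CPM, and the 3 counts used as a floor equal 2.74 CPM. In RefSeq (GRCm38) Ctss and Ctsk are adjacent protein-coding genes, so a gene with 152 bleomycin counts lies beside one with 2. Arnt, the neighbour of Ctsk on the other side, had 69 and 49 counts. Cd74, which encodes the invariant chain, had 72 and 16 counts and was called lower, at 4.45-fold (2.56 to 8.20, adjusted p = 1.99e-08 by the exact binomial test).

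Exopeptidases trim protein ends. Ctsz encodes the carboxypeptidase cathepsin Z, which had 305 saline and 268 bleomycin counts and a ratio of 0.889 (0.751 to 1.05). Ctsh encodes the aminopeptidase cathepsin H, which also helps to process surfactant protein in alveolar type 2 cells. Its counts were 74 and 62, with a ratio of 0.847 (0.595 to 1.20). In the same libraries Sftpc, a surfactant gene of those cells, went from 154 to 7 counts, and its part in the Ctsh value was not tested.

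Ctsd, the aspartic protease gene, had the highest level in both libraries, 1469 counts in saline and 1490 in bleomycin. The ratio was 1.03 (0.954 to 1.103), the narrowest interval of the family, which excludes a 1.5-fold difference in either direction as far as counting error goes. Its log2 ratio was 0.04, or -0.0050 when total counts set the scale. Ctsa encodes protective protein, a carboxypeptidase that holds beta-galactosidase and neuraminidase 1 in a complex in the lysosome. It had 37 and 23 counts, a ratio of 0.629 (0.357 to 1.09). Its partners had ratios below 1 too, with intervals that also held 1. Glb1, the beta-galactosidase gene, had 56 and 42 counts (0.759, 0.496 to 1.15), and Neu1, the neuraminidase gene, 23 and 15 (0.660, 0.320 to 1.32). Per 100 Neu1 counts there were 161 Ctsa counts in saline and 153 in bleomycin.

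**Figure D2:**
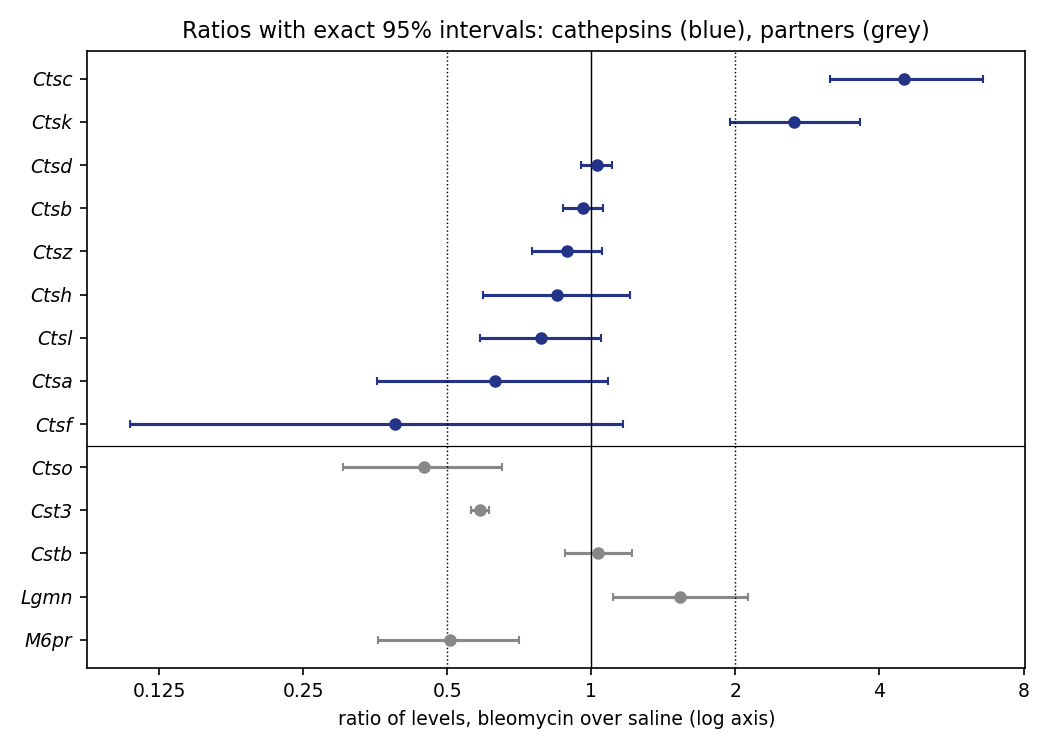
Ratio of the bleomycin to the saline level (log axis) with exact 95% intervals for the 9 tested cathepsins (blue) and for Ctso, the inhibitors Cst3 and Cstb, and the processing and sorting genes Lgmn and M6pr (grey). Dotted lines mark ratios of 0.5 and 2. The ratios of Ctsc and Ctsk lie to the right of 2, although the Ctsk interval (1.95 to 3.65) crosses 2. The other 7 cathepsin intervals cross 1.

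The order of the members was compared within each library, on counts not divided by transcript length because a transcript gives at most 1 tag. In both libraries it began with Ctsd, Ctsb and Ctsz, each above the next by more than counting error. The Ctsd level was 1.63 times that of Ctsb in saline (1.498 to 1.77) and 1.74 times in bleomycin (1.60 to 1.89). In saline Ctsl ranked 4, followed by Ctsh, Ctsk, Ctsc and Ctsa, neighbours that did not differ beyond counting error from Ctsh onwards. In bleomycin Ctsc ranked 4 and Ctsk 5, not distinguishable from each other (1.11, 0.888 to 1.39), while Ctsk was 1.77 times Ctsl (1.35 to 2.33). Ctsf and Ctss came last in both.

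The summed level of the family was close in the 2 libraries, with 3007 counts (2743 CPM) in saline and 3114 (2872 CPM) in bleomycin. Within that sum, Ctsd made up 48.9% (47.1 to 50.7) of saline and 47.8% (46.1 to 49.6) of bleomycin counts, and Ctsb 30.0% (28.4 to 31.7) and 27.5% (26.0 to 29.1). The share of Ctsc went from 1.26% (0.896 to 1.73) to 5.43% (4.66 to 6.28), and that of Ctsk from 1.93% (1.47 to 2.49) to 4.88% (4.15 to 5.70). These are exact binomial intervals. The 2 genes that were called thus remained small parts of the family's counts in both libraries.

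Of 13 further cathepsin symbols looked for, 3 were in the table. Ctso, for cathepsin O, a cysteine protease, had 95 saline and 42 bleomycin counts and was called lower, at 2.24-fold (1.54 to 3.30, adjusted p = 6.93e-05 by the exact binomial test). It was not called with Bonferroni adjustment (p = 0.0677, exact binomial test) or with an assumed coefficient of variation of 0.2 (adjusted p = 0.179, edgeR exact test). Ctsw, a cathepsin of cytotoxic lymphocytes, had 0 and 1 counts, and the placental Cts6 had 0 in both.

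Cystatin C transcripts outnumbered those of any cathepsin. Cst3 had 5325 saline and 3084 bleomycin counts, 4857 and 2845 CPM, with a ratio of 0.586 (0.560 to 0.612). The difference was far beyond counting error (adjusted p = 1.21e-125 by the exact binomial test) but short of 2-fold, so it was not called. With an assumed coefficient of variation of 0.2, the adjusted p of Cst3 was 0.332 (edgeR exact test). Cstb, the intracellular inhibitor stefin B, had 297 and 304 counts, a ratio of 1.04 (0.879 to 1.22). The 8 cysteine cathepsins among the members summed to 1501 and 1601 counts, so per 100 Cst3 counts there were 28.2 cathepsin counts in saline and 51.9 in bleomycin, a change of 1.84-fold (1.69 to 2.003). Without Ctsc and Ctsk, the figures were 26.4 and 41.5, a change of 1.57-fold (1.44 to 1.72). The remaining cysteine cathepsins summed to 1405 counts in saline and 1280 in bleomycin. That change therefore came with the lower Cst3 count and not with more cathepsin counts. Transcript counts do not give the ratio of the proteins.

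The processing and sorting list held 10 tested genes that activate cathepsins or sort lysosomal proteins. Of these, 0 were called higher and 1 lower, against 8.08% and 8.52% of all genes tested, so the count is close to the background. Their median log2 ratio was -0.19, against 0.016 over all genes tested. Lgmn, for legumain, which cleaves several cathepsins to their mature form, had 66 and 100 counts, a ratio of 1.53 (1.11 to 2.12, adjusted p = 0.0323 by the exact binomial test) that stayed under 2-fold. Nagpa, which uncovers the mannose phosphate tag, was the called gene, with 42 and 17 counts, 2.44-fold lower (1.36 to 4.58). M6pr, a mannose phosphate receptor, had 108 and 54 counts, a ratio of 0.506 (0.358 to 0.707) that lay just short of the required 2-fold and passed it when total counts set the scale. Igf2r, the other such receptor, had 8 and 6 counts. Scarb2, a sorting receptor for glucocerebrosidase, had the most counts of the list over both libraries together, 151 and 257, a ratio of 1.72 (1.40 to 2.12). Sort1, another sorting receptor and the most abundant of the list in saline, had 223 and 122 counts, a ratio of 0.553 (0.440 to 0.693) that was not called.

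Of 41 tested genes for other lysosomal hydrolases and their activators, 0 were called higher and 6 lower (14.6%). The shares over all genes tested were 8.08% and 8.52%. Ratios were below 1 for 30 of the 41, against 4649 of all 9369 genes tested, and the median log2 ratio of the 41 was -0.47. Galns, a sulphatase of keratan sulphate, was 6.43-fold lower (1.46 to 58.7), going from 13 to 2 counts, and Naaa, an amidase of fatty acid ethanolamides, with 88 and 24, was 3.63-fold lower (2.29 to 5.96). Psap, which encodes the saposin activators of sphingolipid breakdown and was the most abundant, had 1079 and 975 counts. With a required ratio of 1.5, 1 of the 41 was higher and 11 were lower, against 11.8% and 12.4% of all genes tested.

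**Figure D3:**
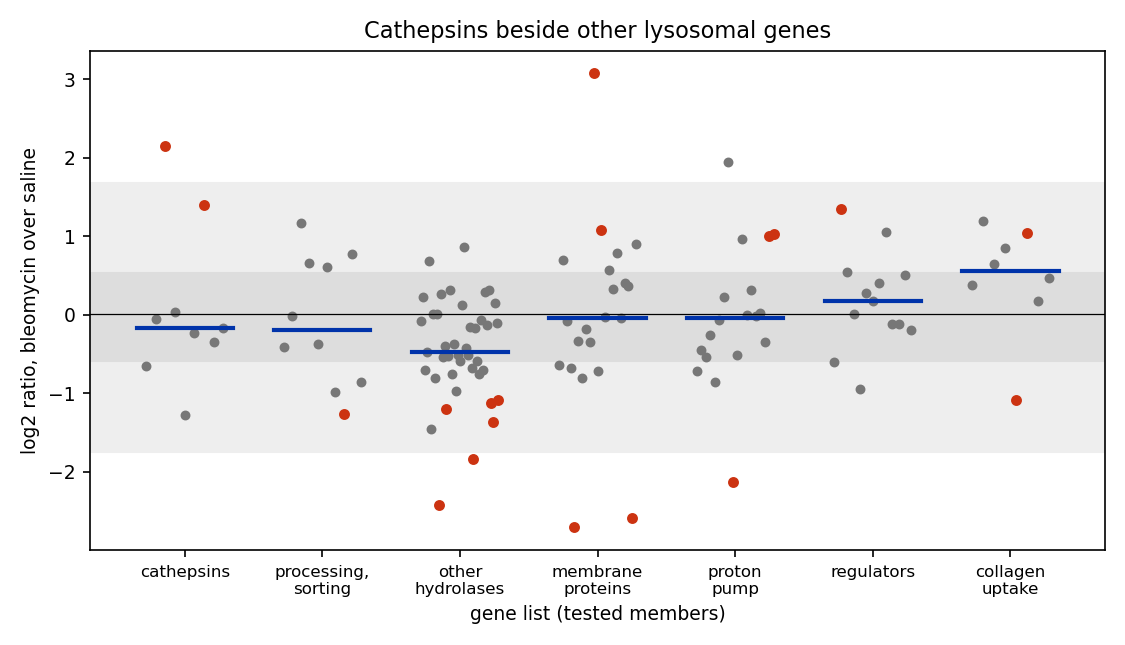
Log2 ratio of bleomycin over saline for each tested gene of 7 lists; red points were called and blue bars are list medians. Grey bands hold the central 50% and 90% of all tested genes and the thin line their median; among cathepsins the 2 red points, Ctsc and Ctsk, lie above a median of -0.17, and the hydrolase list has red points below 0 but none above.

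Lysosomal membrane proteins had 2 of 21 called higher and 2 lower, or 9.52% each, close to the 8.08% and 8.52% of all genes tested, with a median log2 ratio of -0.04. Laptm4b, a membrane protein of late endosomes, went from 1 to 12 counts and was called higher, at 12.1-fold with an interval of 1.80 to 519. Mfsd1, a lysosomal transporter, was 2.13-fold higher (1.34 to 3.47). Ctns, the cystine exporter, fell from 16 to 2 counts, 7.91-fold lower (1.86 to 70.9), and Tpcn1, a cation channel, from 33 to 5, 6.53-fold lower (2.53 to 21.4). The general lysosome marker genes went different ways short of 2-fold: Lamp1 had 544 and 307 counts (ratio 0.571, 0.495 to 0.658), Lamp2 620 and 542 (0.884, 0.786 to 0.994), and Cd63 1137 and 1819 (1.62, 1.502 to 1.74).

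The vacuolar proton pump, which acidifies the lysosome, had 2 of 18 tested subunits called higher (11.1%) and 1 lower (5.56%), counts near the background of 8.08% and 8.52%, with a median log2 ratio of -0.04. Tcirg1, the subunit used by osteoclasts, had 19 and 39 counts (2.08-fold higher, 1.17 to 3.80) and Atp6v1h 40 and 80 (2.02-fold higher, 1.37 to 3.04), while Atp6v0e2 had 15 and 3 (4.94-fold lower, 1.40 to 26.6). With total counts as the scale, neither Tcirg1 nor Atp6v1h was called. Of 13 tested regulators of lysosomal genes and their nutrient-sensing kinase complex, 1 was higher (7.69%, against 8.08%) and 0 lower, with a median of 0.17. The called gene, 2400001E08Rik, now named Lamtor1, anchors that complex to the lysosome and had 46 and 117 counts, 2.57-fold higher (1.81 to 3.70). Tfeb, a transcription factor that drives lysosomal genes, had 4 counts in each library and was not tested.

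Genes through which fibroblasts bind, cut and take up collagen had 1 of 8 called higher and 1 lower, or 12.5% each beside 8.08% and 8.52% of all genes tested, which at 8 genes is near the background. Ratios were above 1 for 7 of the 8, against 4720 of all 9369 genes tested. The median log2 ratio of the 8 was 0.55, against 0.016 over all genes tested. Mmp14, a membrane collagenase, had 293 and 596 counts and was 2.06-fold higher (1.79 to 2.37), a call that was lost with total counts as the scale. Mfge8, a secreted protein that bridges collagen and cells for uptake, was 2.14-fold lower (1.48 to 3.15), with 93 and 43 counts. Mrc2, the endocytic collagen receptor, had 128 and 143 counts (ratio 1.13, 0.884 to 1.45), and Itgb1, an integrin chain, 617 and 1102 (1.81, 1.64 to 1.997). Col1a1, the type I collagen chain, went from 2714 to 7925 counts, 2.95-fold higher (2.83 to 3.09). Per 100 Col1a1 counts there were 2.14 Ctsk counts in saline and 1.92 in bleomycin, a change of 0.897-fold (0.657 to 1.24), so the Ctsk ratio did not differ from that of Col1a1 beyond counting error. Ctsc went from 1.40 to 2.13 per 100 Col1a1 counts, a change of 1.52-fold (1.06 to 2.23). Col1a2, also a type I collagen gene, went from 1636 to 5613 counts, 3.47-fold higher (3.28 to 3.67). Per 100 Col1a2 counts there were 3.545 Ctsk counts in saline and 2.71 in bleomycin, a change of 0.764-fold (0.558 to 1.06). Ctsc was not compared with Col1a2 in this way.

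Promoter sequences were examined because 2 members were called higher while the other tested members were not called. Many lysosomal genes carry a palindromic site for TFEB-type factors, TCACGTGA, whose core is the E-box CACGTG. RefSeq windows from 250 bases before to 50 after a start site (GRCm38.p6) were found for 8 members, with 2 windows for Ctsa. Ctsb and Ctsh were not matched. On either strand, TCACGTGA occurred in windows of 2 members, Ctsa and Ctsd, against 0.974% of 32851 windows, and CACGTG, which every TCACGTGA contains, in 4 members, Ctsa, Ctsd, Ctsf and Ctsl, against 7.15%. Neither was in the Ctsc or Ctsk window. The motif TGANTCA, bound by AP-1 factors, was in no member's window (7.81% of windows), and TATAAA was in that of Ctss (13.6% of windows). The windows of the 2 called genes and of Ctsd, the most abundant, are given with CACGTG in capitals. A match is letters in a window and not a measured site, and no match says nothing of a factor.
Ctsc, chr7:88277835-88278134, plus strand: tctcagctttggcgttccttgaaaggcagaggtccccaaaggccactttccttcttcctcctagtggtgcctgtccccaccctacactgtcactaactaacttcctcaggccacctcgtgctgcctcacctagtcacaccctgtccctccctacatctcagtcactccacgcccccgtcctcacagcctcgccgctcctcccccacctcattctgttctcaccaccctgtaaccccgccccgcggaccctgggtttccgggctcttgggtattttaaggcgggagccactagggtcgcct
Ctsk, chr3:95498960-95499259, plus strand: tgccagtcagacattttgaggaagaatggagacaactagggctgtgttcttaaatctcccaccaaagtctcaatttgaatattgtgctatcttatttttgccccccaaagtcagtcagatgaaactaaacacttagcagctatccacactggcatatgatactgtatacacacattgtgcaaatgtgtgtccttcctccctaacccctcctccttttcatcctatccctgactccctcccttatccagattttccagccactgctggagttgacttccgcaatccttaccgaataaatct
Ctsd, chr7:142387778-142388077, minus strand: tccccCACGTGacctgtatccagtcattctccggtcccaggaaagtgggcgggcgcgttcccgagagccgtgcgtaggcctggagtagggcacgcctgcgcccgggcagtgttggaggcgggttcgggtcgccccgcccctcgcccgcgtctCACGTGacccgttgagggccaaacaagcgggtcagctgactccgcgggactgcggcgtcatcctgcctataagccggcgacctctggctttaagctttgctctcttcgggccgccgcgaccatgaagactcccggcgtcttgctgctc

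Cathepsins are abundant in leukocytes, so markers of other cells were read in the same libraries. Of 24 macrophage symbols, 18 were in the table, with summed counts of 88 in saline and 70 in bleomycin. Emr1, Itgax, Marco, C1qc and Trem2 were at 0 in both, Ptprc had 0 and 1 counts, and Csf1r had 2 and 2. Lyz1, a lysozyme gene whose tags may be shared with its copy Lyz2, held 55 and 10 of the macrophage counts. The 4 neutrophil markers found, S100a8, S100a9, Prtn3 and Csf3r, summed to 1 and 5 counts, and the 8 lymphocyte markers to 4 and 1. Thus the defining leukocyte markers were at or near 0 in the library where Ctsc had 169 and Ctsk 152 counts. The 14 endothelial markers summed to 751 and 47 counts and the 15 epithelial ones to 231 and 42. Of the epithelial counts, Sftpc held 154 and 7 and Scgb1a1 46 and 12, while Epcam had 1 and 0 and Cdh1 0 in both. The 4 mesothelial markers summed to 9 and 9, and the 10 smooth muscle and pericyte ones to 840 and 1048. Of the latter, 9 were tested, with 1 called higher (11.1%) and 3 lower (33.3%), against 8.08% and 8.52% of all genes tested. The median log2 ratio of the 9 was -0.45. The higher one, Des, had 169 and 571 counts, and the other 9 of the 10 summed to 671 and 477. Their part in the values of members with ratios below 1 was not tested. Fibroblast markers differed in both directions. Of 7 tested, 2 were called higher and 2 lower (28.6% each), against 8.08% and 8.52% of all genes tested. Their median log2 ratio was -0.05. Col1a1 and Col1a2 were the higher ones, while Dcn had 4861 and 1606 counts and Tcf21 338 and 93. In sorted bulk cells, fewer cells of a type and less RNA per cell cannot be told apart.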

How the data were processed

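The authors deposited whole-number tag counts per gene for 2 SOLiD SAGE libraries. BWA 0.6.2 and the build mm9 appear, without a role, in the submitters' processing notes. The sources used here do not say how tags were assigned or whether counts were scaled before deposit; they were treated as raw. A blank line (1) was left out, and older symbols were matched through RefSeq GRCm38 transcript records (90.3% of genes). Predicted tags and promoter windows carry GRCm38 coordinates, not mm9.

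Libraries were scaled by TMM (factors 1.01 and 0.986, edgeR 4.0.16, R 4.3.3). The edgeR quasi-likelihood test needs replicates, so a two-sided exact binomial test was used over genes with at least 10 counts, and ratios have exact Clopper-Pearson 95% intervals. One count is worth 0.912 CPM (saline) or 0.922 CPM (bleomycin). Ratios between genes within libraries have exact conditional odds-ratio intervals and were chosen after their values were seen. Computations used Python 3.11.15, scipy 1.17.1, numpy 2.4.6 and pandas 2.3.3, with DESeq2 1.42.0 for 1 alternative scaling.

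The members and lists were chosen with earlier results of these data known. Named genes were the members, fixed partners, up to 4 called genes per list and its most abundant gene; Arnt, Pltp and Fdft1 were named for position, and marker genes at or near 0 for identity, and Sort1 after its values were seen. Cd68 was not analysed here.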

Additional observations from a re-analysis of the deposited data

How the results depend on the processing

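Among the cathepsins, 2 were called higher and 0 lower under counting error with each scaling tried (TMM, total counts, DESeq2 size factors), each minimum count, a required ratio of 1.5, 5 added to each count and Bonferroni adjustment. A required ratio of 3 left 1 called higher, Ctsc, and an assumed coefficient of variation of 0.4 left 0, whereas 0.2 left 2, with adjusted p of 0.000702 for Ctsc and 0.0499 for Ctsk (edgeR exact test). Log2 ratios ranged from 2.03 to 2.16 for Ctsc and from 1.33 to 1.40 for Ctsk over the alternatives. Over all genes, 757 higher and 798 lower became 396 and 484 with a minimum of 50 counts, 443 and 445 with a ratio of 3, 288 and 333 with Bonferroni adjustment, 274 and 333 with a coefficient of variation of 0.2, and 21 and 8 with 0.4. Of the calls in the lists of other lysosomal and collagen uptake genes, 1 hydrolase and 1 membrane protein, both lower, were left with a coefficient of 0.2, and 4 hydrolases and 1 membrane protein lower, with Lamtor1 and Mmp14 higher, were left with Bonferroni adjustment. Fewer genes were tested at the higher minimum; the assumed coefficients are not measured. Total counts moved the median of all genes by -0.041 (log2). No paired analysis was possible because each group has 1 library. Depth limits Ctsf and Ctss most.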
